A study of Mus musculus with 4 samples.

Results

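Chromosome 5 genes were followed by their position in RNA-seq libraries of a mouse liver cancer cell line, LPC-HRas, with and without overexpression of UBXN9. The 769 genes described here are those annotated to chromosome 5 (GRCm38) with at least 1 CPM (a count divided by the total of its library and put on 1 scale for all libraries) in at least 2 of the 4 libraries, and with a symbol that does not begin with Gbp, Oas or Cxcl. They were 769 of the 12163 genes in the table that met the same rule on any chromosome and of the 3237 identifiers on chromosome 5, and 20 more met the CPM rule but carried an excluded symbol. Of the 769, 707 were protein coding, 719 reached 1 CPM in all 4 libraries, 15 passed through the UBXN9 libraries alone and 7 through the control libraries alone. The comparison group was the 9480 genes that met the rule on the other autosomes except 4 and 8, called the other autosomes below.

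Both groups held unstimulated LPC-HRas cells, grown in the same serum medium. The control group, with the genotype control, had libraries control 1 and control 2, and the UBXN9-overexpressing group had UBXN9 1 and UBXN9 2. UBXN9 is a UBX-domain protein that binds the ATPase VCP and is encoded by Aspscr1 on another chromosome. Whether the overexpressing cells were 1 clone or a pool, which construct the controls carried, and whether libraries of a group came from separate cultures are not given in the sources used here, so the spread between libraries may be technical.

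Genes of a chromosome share no common function beyond local families that arose by duplication. They share a DNA molecule, so an RNA ratio averaged over many neighbours is often read along tumour genomes. Such an average also moves with local chromatin, with library scaling and with the mix of strongly regulated genes in a stretch. No DNA was measured here. Chromosome 5 of the mouse holds the genes of several growth factor receptors and EGF receptor ligands, a stretch of bone and tooth matrix genes with Spp1 (osteopontin), abundant housekeeping genes such as Actb and Rplp0, and the interferon-responsive Gbp and Oas clusters and part of the Cxcl chemokine cluster that the rule leaves out.

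The upstream sequences of 6 members named in the results below are printed. Hpse and Hspb8 were among the largest rises, C1qtnf7 and Cc2d2a lie in a short run of genes that rose together, Trim54 had the largest fall, and Spp1 was the most abundant gene of its 10 Mb window. Each runs 5′ to 3′ on the gene's strand and ends before both the RefSeq and the GENCODE start of the gene (RefSeq sequence, build GRCm38.p6). Capitals mark matches to 2 letter patterns, searched on both strands: GAAA, any 2 bases and GAAA again, the core of the interferon-stimulated response element (ISRE), and TTCNNNGAA, the element bound by STAT proteins.
C1qtnf7 (chr5:43515319-43515537, plus strand): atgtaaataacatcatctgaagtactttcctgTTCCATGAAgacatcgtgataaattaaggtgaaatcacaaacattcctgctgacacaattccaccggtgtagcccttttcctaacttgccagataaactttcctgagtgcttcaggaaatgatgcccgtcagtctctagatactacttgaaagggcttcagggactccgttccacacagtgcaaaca
Cc2d2a (chr5:43662129-43662345, plus strand): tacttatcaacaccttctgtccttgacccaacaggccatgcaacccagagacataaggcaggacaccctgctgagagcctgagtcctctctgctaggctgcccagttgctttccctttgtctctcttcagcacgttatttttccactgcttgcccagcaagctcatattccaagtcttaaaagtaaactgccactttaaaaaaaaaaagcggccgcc
Hpse (chr5:100719717-100719966, minus strand): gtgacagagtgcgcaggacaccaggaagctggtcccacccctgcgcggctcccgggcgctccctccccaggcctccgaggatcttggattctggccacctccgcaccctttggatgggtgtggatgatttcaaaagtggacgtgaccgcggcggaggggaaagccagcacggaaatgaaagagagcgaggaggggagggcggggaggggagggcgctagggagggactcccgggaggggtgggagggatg
Hspb8 (chr5:116422865-116423114, minus strand): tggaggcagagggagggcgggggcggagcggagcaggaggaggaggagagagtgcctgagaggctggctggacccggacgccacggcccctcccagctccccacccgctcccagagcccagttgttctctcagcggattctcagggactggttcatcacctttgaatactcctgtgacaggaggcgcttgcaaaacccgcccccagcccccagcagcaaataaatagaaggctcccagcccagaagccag
Spp1 (chr5:104434861-104435110, plus strand): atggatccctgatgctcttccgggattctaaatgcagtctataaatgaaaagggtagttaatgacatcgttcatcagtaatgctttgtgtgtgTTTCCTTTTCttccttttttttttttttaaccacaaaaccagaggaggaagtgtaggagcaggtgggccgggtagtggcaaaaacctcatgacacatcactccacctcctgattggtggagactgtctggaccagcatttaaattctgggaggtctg
Trim54 (chr5:31116362-31116611, plus strand): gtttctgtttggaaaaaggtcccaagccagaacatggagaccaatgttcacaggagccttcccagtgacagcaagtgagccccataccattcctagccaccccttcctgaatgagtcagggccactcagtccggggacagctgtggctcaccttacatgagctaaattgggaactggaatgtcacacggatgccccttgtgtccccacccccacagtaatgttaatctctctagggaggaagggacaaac
C1qtnf7 held a match to TTCNNNGAA and Spp1 a match to the ISRE core on the other strand, whereas the printed stretches of the other 4 genes held neither. RefSeq promoters, taken from 250 bases before to 50 bases after a start, were found for 625 of the 769 members. The ISRE core was present in 17 of these (2.72%), against 3.99% of all 27025 genes with a promoter (3.44% of 32851 promoters), and in 0 of the 27 members with a promoter that passed the test upward and 0 of the 12 that passed downward. TTCNNNGAA was present in 48 (7.68%), against 9.55% of genes (8.3% of promoters), and in 1 of the 27 and 1 of the 12. Such a match describes letters only, and its absence covers this window only.

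The libraries held 24677770 and 22147475 estimated counts in control 1 and 2, and 21814969 and 26292686 in UBXN9 1 and 2. The members took between 7.06% and 7.29% of the counts of each library, and 769 of 769 passed the edgeR filter on low counts. Aspscr1, the overexpressed gene, stood at 92.1 and 115 CPM in the controls and at 392 and 380 CPM in the UBXN9 libraries, a 3.72-fold rise (edgeR adjusted p = 0.00144). Of 6 hepatocyte markers, Alb and Serpina1a were at 0 in every library and the summed level was at most 1.43 CPM. Of 6 biliary and progenitor markers, Sox9 ran from 168 to 208 CPM, while Epcam and Krt7 were under 0.2 CPM and Prom1 was at 0. Krt19 stood at 7.06 and 10.4 CPM in the controls and 3.29 and 2.15 CPM in the UBXN9 libraries, and the list summed to 2659, 2383, 2940 and 3201 CPM, nearly all of it Spp1. The immune list summed to between 6.17 and 9.65 CPM with Cd3e at 0, and the endothelial list to between 1.95 and 4.33 CPM. Stellate and fibroblast markers summed to 223 and 206 CPM in the controls and 353 and 424 CPM in the UBXN9 libraries, with Lrat at or near 0, and their part in the results below was not tested. In bulk RNA, more cells of a kind and more RNA per cell cannot be told apart.

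Genes on chromosome 5 as a whole stood slightly higher in UBXN9-overexpressing cells than genes elsewhere. The median log2 ratio of mean CPM, UBXN9 over control, was 0.0048 over the members and -0.14 over the other autosomes, a difference of 0.15, or 1.11-fold. Over all genes that met the rule the median was -0.10 with library totals and -0.008 with TMM composition factors, which scale libraries on genes with like shares. Ratios along the chromosome are therefore given relative to the other autosomes. Of the members, 68.0% lay above the median of the other autosomes. Because chromosome 5 was chosen with these ratios known, they are a description and carry no test.

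The same offset appeared with each pairing of libraries. UBXN9 1 over control 1 gave a relative median of 0.17, UBXN9 1 over control 2 gave 0.16, and UBXN9 2 gave 0.17 over either control. Libraries of 1 group differed far less, with 0.03 for control 2 over control 1 and 0.0098 for UBXN9 2 over UBXN9 1. On the log2(CPM + 1) scale, with each gene centred on its mean, the members stood at -0.075 in control 1, -0.061 in control 2, 0.077 in UBXN9 1 and 0.083 in UBXN9 2, relative to the other autosomes. The controls were low and the UBXN9 libraries high without overlap, with group values of -0.068 ± 0.01 and 0.08 ± 0.004 (SD, n = 2).

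Among the 19 autosomes chromosome 5 ranked the third. Chromosomes 4 and 8, which the rule keeps out of the comparison, had relative medians of 0.32 and 0.35, and the 16 other autosomes ran from -0.039 on chromosome 3 to 0.052 on chromosome 16. In single pairings of libraries these 16 reached 0.117 at most, and within a group they reached 0.148 (UBXN9 2 over UBXN9 1). The 4 UBXN9 over control values of chromosome 5, from 0.16 to 0.17, lay above those of the 16 and below those of chromosomes 4 and 8.

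**Figure D1:**
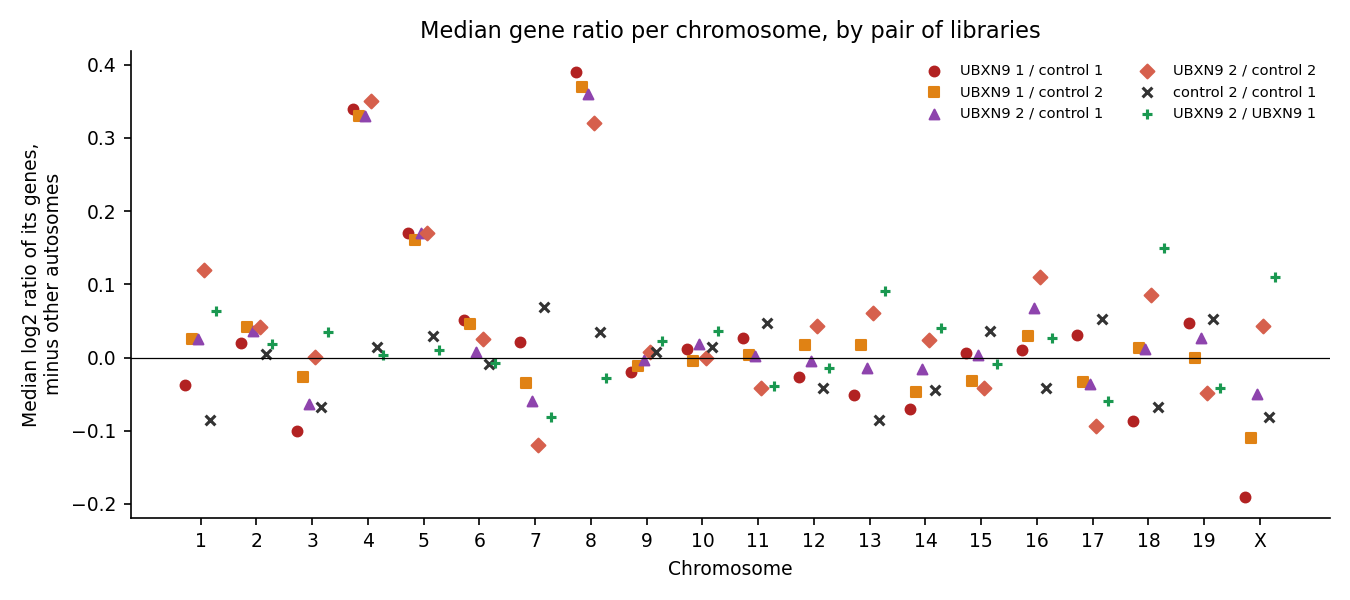
Median log2 ratio of the genes of each chromosome, minus that of the other autosomes, for the 4 pairs of a UBXN9 with a control library and for the 2 pairs within a group (crosses and plus signs). Chromosome 5 lies at 0.16 to 0.17 in all 4 pairs of UBXN9 with control, below chromosomes 4 and 8 at 0.32 to 0.39. In these pairs the 16 other autosomes run from -0.12 to 0.117, and chromosome X runs from -0.19 to 0.043.

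The offset was not limited to a few genes. The 10th, 25th, 75th and 90th percentiles of the members exceeded those of the other autosomes by 0.19, 0.17, 0.16 and 0.11 on the log2 scale. Leaving out every gene that passed the edgeR test gave 0.137 over the 717 members left. The offset was present at all levels of expression, at 0.10 for the 141 members under 5 CPM, 0.19 for 148 members from 5 to 20 CPM, 0.13 for 311 from 20 to 100 CPM and 0.12 for 169 at 100 CPM and above. By length of the longest transcript it was 0.087 for the shortest of 3 classes (up to 2564 bases), 0.17 for the middle and 0.16 for the longest (above 4239 bases). Transcript length was similar in both sets, with medians of 3473 and 3366 bases. Protein-coding members gave 0.15, whereas the 62 others, mostly noncoding RNAs and pseudogenes, gave 0.027. By the same measure UBXN9 2 over UBXN9 1 gave -0.083 under 5 CPM, 0.084 from 5 to 20 CPM and -0.14 for these 62. It ran from -0.058 to 0.055 in the other classes, and control 2 over control 1 from -0.013 to 0.043. Under 5 CPM and for the 62 the offset was thus near or below the difference between UBXN9 libraries.

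**Figure D2:**
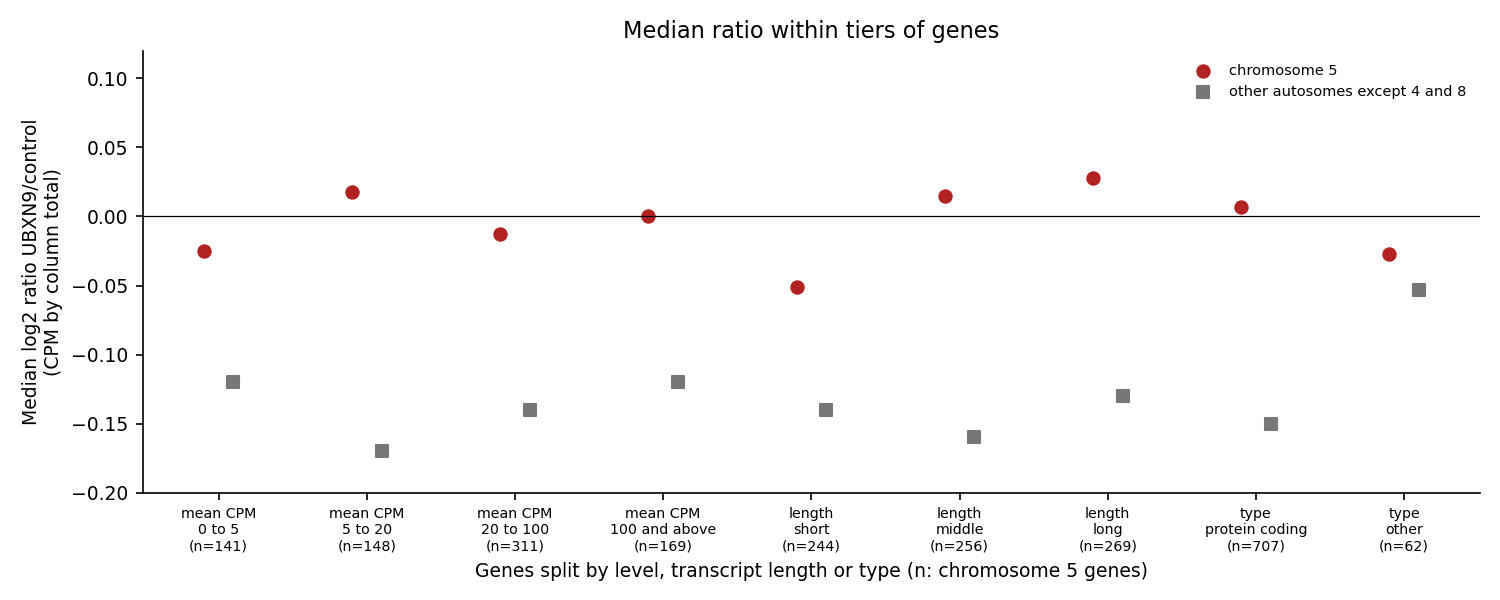
Median log2 ratio of UBXN9 to control (CPM by library total) for chromosome 5 genes (circles) and the other autosomes (squares), split by mean CPM, transcript length and gene type. Chromosome 5 lies above in all 9 classes, by 0.087 to 0.19 except for noncoding and other types, where the difference is 0.027.

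Along the chromosome the offset was uneven. Of 16 windows of 10 Mb, 10 to 20 Mb and 150 to 160 Mb held 7 members each, with relative medians of -0.068 and 0.12. The remaining 14 held at least 10 members, and all 14 had a median above that of the other autosomes. Over the 195 windows of the same size on the other autosomes, 55.9% were above it, the 10th and 90th percentiles were -0.09 and 0.17, and the extremes were -0.25 and 0.43. In 12 of the 14 windows all 4 pairs of a UBXN9 and a control library were above the other autosomes, and in 0 of them all were below. The exceptions were 80 to 90 Mb, which fell below the other autosomes without UBXN9 2, and 140 to 150 Mb. From 0 to 60 Mb the relative median was 0.16 over 212 members, from 60 to 110 Mb 0.26 over 161, and from 110 Mb to the end 0.10 over 396.

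**Figure D3:**
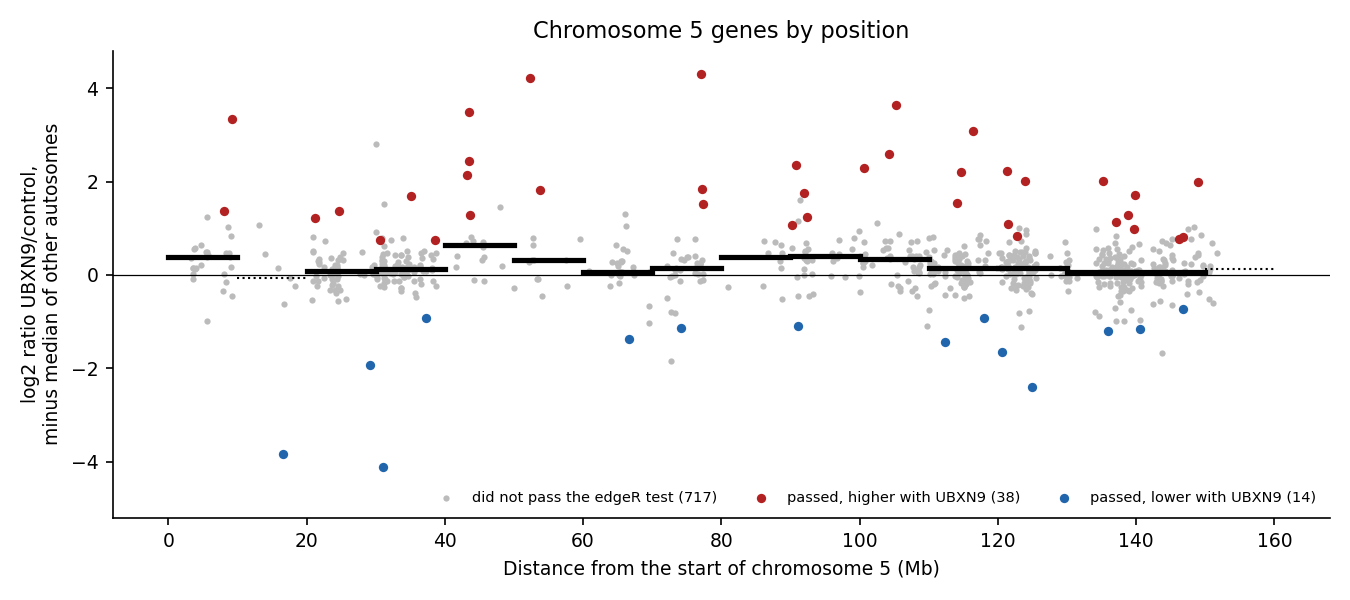
Log2 ratio of each of the 769 genes, minus the median of the other autosomes, against distance from the start of chromosome 5, with the median of each 10 Mb window as a bar (dotted where a window held under 10 genes). The 14 solid bars all lie above 0, from 0.059 to 0.64, while single genes scatter on both sides.

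Windows with fewer expressed genes included the largest offsets. The 7 windows with 10 to 39 members had medians from 0.07 to 0.64 (middle value 0.38), and the 7 with 40 or more had medians from 0.06 to 0.34 (middle value 0.12). On the other autosomes windows with 10 to 39 genes had a middle value of 0.05 over 100 windows, and those with 40 or more had -0.00 over 95. Median transcript length ran from 3.62 to 5.21 kb in the 7 sparser windows of chromosome 5 and from 3.01 to 3.64 kb in the 7 denser ones, and its part in the result was not tested. The SD between libraries of a group ran from 0.021 to 0.14 and from 0.016 to 0.082.

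**Figure D4:**
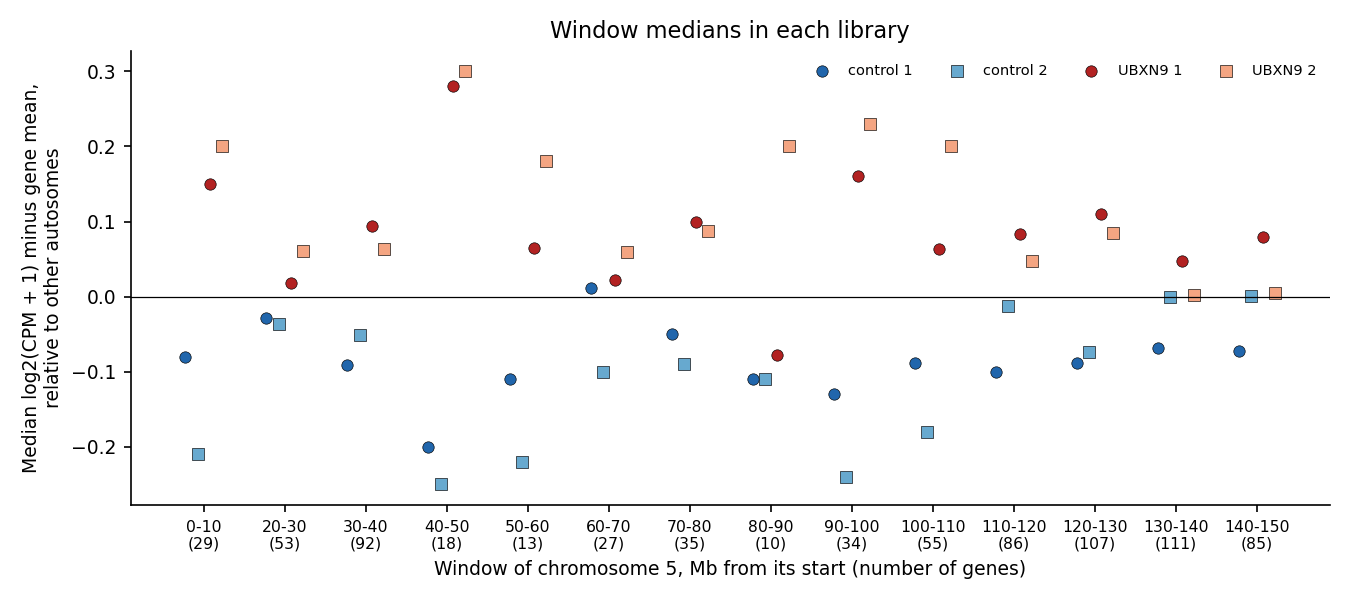
Median log2(CPM + 1) of each window, centred on each gene's mean and relative to the other autosomes, in control 1 and 2 (blue) and UBXN9 1 and 2 (red). Both UBXN9 libraries lie above both controls in all 14 windows. The libraries of 1 group lie farthest apart at 80 to 90 Mb, with UBXN9 1 at -0.078 and UBXN9 2 at 0.20.

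The highest window ran from 40 to 50 Mb, with a median of 0.64 over 18 members and 15 of 18 above the other autosomes. Its relative median was 0.56, 0.60, 0.63 and 0.78 in the 4 pairs, against -0.17 and 0.10 within the groups. Its most abundant gene was Lap3, a leucine aminopeptidase, at 228 and 268 CPM in the controls and 473 and 315 CPM in the UBXN9 libraries. CPM of single genes here and below carry TMM factors, except at the edge of the CPM rule. The groups did not overlap for Lap3, but its log2 fold change of 0.67 (SE 0.23) did not pass (edgeR adjusted p = 0.148). Limited to protein-coding genes the median of this window was 0.41, and without the genes from 43 to 44 Mb it was 0.35 over 12 members. Requiring 1 CPM in all 4 libraries, which leaves out genes admitted through the UBXN9 libraries alone, gave 0.40. Under that filter 0 to 10 Mb and 80 to 90 Mb gave 0.38, and 90 to 100 Mb gave 0.37.

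Within that window 4 neighbouring genes between 43 and 44 Mb rose, a run singled out after its values were seen. Cpeb2, which binds cytoplasmic polyadenylation elements of mRNA (43233170 to 43289724), had 3.85 and 3.45 CPM in the controls and 10.9 and 19.9 CPM in the UBXN9 libraries. The noncoding RNA Gm43021 (43470692 to 43474853) had 0.382 and 0.318 CPM, then 5.03 and 2.68 CPM. C1qtnf7, a secreted protein with a C1q domain (43515538 to 43618803), had 1.34 and 0.635 CPM, then 5.82 and 4.64 CPM. All 3 rose in both UBXN9 libraries, 4.21-fold, 10.8-fold and 5.22-fold, with edgeR adjusted p of 0.0133, 0.00784 and 0.0173; the fold of C1qtnf7 was 8.11 without control 1. Cc2d2a, a gene of the ciliary transition zone (43662346 to 43740972), rose 2.37-fold from 14.8 and 12.2 to 31.5 and 32.2 CPM (edgeR adjusted p = 0.011, and 0.109 without control 2). Fbxl5, an iron-sensing subunit of a ubiquitin ligase and the next gene, went from 33.8 and 37.1 to 67.8 and 53.0 CPM and did not pass (edgeR adjusted p = 0.0546). The remaining member of the stretch, Gm42553, had 1.36 and 0.493 CPM, then 1.43 and 1.5 CPM, without overlap and far from the threshold (edgeR adjusted p = 0.561).

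Other windows with a high median were 90 to 100 Mb (0.40 over 34 members), 0 to 10 Mb (0.39 over 29), 80 to 90 Mb (0.38 over 10), 100 to 110 Mb (0.34 over 55) and 50 to 60 Mb (0.32 over 13). The median from 0 to 10 Mb was 0.25 without control 2. From 90 to 100 Mb the 4 pairs gave 0.26 to 0.48 and the within-group pairs -0.13 and -0.058. Its most abundant gene, Sept11, a septin of the cytoskeleton, had 206 and 185 CPM in the controls and 227 and 245 CPM in the UBXN9 libraries, without overlap and without passing (edgeR adjusted p = 0.381). The window from 80 to 90 Mb rested on 1 library, since its median was -0.15 without UBXN9 2, against 0.23 without control 1 and 0.24 without control 2, and UBXN9 1 gave -0.077 and -0.063 over the 2 controls. The window from 100 to 110 Mb held Gm43302, whose span includes Gbp6 and Gbp10, and without it the median was 0.32. Its most abundant gene was Spp1, the secreted glycoprotein osteopontin, at 2483 and 2198 CPM in the controls and 2742 and 2991 CPM in the UBXN9 libraries, with a log2 fold change of 0.29 (SE 0.20) that did not pass (edgeR adjusted p = 0.478).

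In the gene-rich end of the chromosome the medians were 0.14 from 110 to 120 Mb (86 members), 0.14 from 120 to 130 Mb (107), 0.072 from 130 to 140 Mb (111) and 0.059 from 140 to 150 Mb (85). They depended on the library left out: 120 to 130 Mb gave 0.24 without UBXN9 2, 130 to 140 Mb gave 0.029 without control 1 and 0.12 without control 2 or UBXN9 2. The window from 140 to 150 Mb gave 0.0085 on leaving out control 1, 0.11 on leaving out control 2 and 0.16 on leaving out UBXN9 2. Abundant genes of these windows included Rplp0, a stalk protein of the ribosome, Gnb2, a G protein subunit, and Actb, cytoplasmic actin. Actb had 1941 and 2193 CPM in the controls and 2168 and 2053 CPM in the UBXN9 libraries. The groups overlapped for all 3 genes, and none of them passed (edgeR adjusted p from 0.783 to 0.961). The direction of Actb, Gnb2 and Rplp0 depended on scaling or on the library left out.

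Single genes were tested with edgeR in the fit over all 13230 genes. Of the 769 members 38 were higher (4.94%), where 5.06% of all genes tested were higher, and 14 were lower (1.82%), where 2.38% of all genes were lower. In either direction 52 members passed (6.76%), against 7.44% of all genes. Both shares were near those of all genes, and since the chromosome was chosen on the same contrast nothing more is read from them. Both UBXN9 libraries lay above both controls for 260 members (33.8%), against 25.1% of all genes, and below both for 133 (17.3%), against 25.6%. The median edgeR log2 fold change was 0.095 over the members and -0.006 over all genes tested. Gene by gene, the median absolute log2 difference over the members was 0.179 between the controls and 0.281 between the UBXN9 libraries. The median absolute edgeR log2 fold change of members was 0.25. A typical member thus differed between libraries of a group by more than the offset of the chromosome, which is a signed median over all members. In fits of 3 libraries the spread comes from 1 group alone, and the counts depended on the library left out. Without control 2 they were 15 higher and 5 lower, and without UBXN9 1 or UBXN9 2 they were 109 and 34 or 103 and 40. With column totals alone as the scaling 25 were higher and 12 lower. Of the 52 genes, 19 passed in all 4 fits that left out a library.

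Several of the largest rises were in genes under 1 CPM in both controls. The CPM rule admitted them only through the UBXN9 libraries, so 1 CPM or more in both UBXN9 libraries was required. Such genes are Gm43021 above and Hopx, Sod3, 9330182L06Rik, Dmp1, Pf4 and Fzd9 below. Hopx, a homeodomain protein that does not bind DNA (77086988 to 77115121), had 0.267 and 0.136 CPM in the controls and 3.76 and 3.99 CPM in the UBXN9 libraries. Sod3, the extracellular superoxide dismutase (52363791 to 52371418), had 0.839 and 0.771 CPM and then 15.7 and 13.3 CPM. These rises of 18.5-fold and 17.8-fold had log2 values of 4.21 (SE 0.45) and 4.16 (SE 0.29) with edgeR adjusted p of 0.00271 and 0.000448. The gene 9330182L06Rik rose 9.66-fold to 4.43 ± 0.561 CPM (SD, n = 2; edgeR adjusted p = 0.0034). Dmp1, a matrix protein of bone and dentin, rose 5.7-fold from 0.649 and 0.681 to 2.84 and 4.75 CPM (edgeR adjusted p = 0.0136). Gm43302 rose 12.0-fold to 128 ± 14.6 CPM (edgeR adjusted p = 0.000262), and its reads cannot be told apart from those of the Gbp genes it spans, which are interferon-inducible GTPases.

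Stress and protein turnover genes included Hspb8, among the largest rises. Hspb8, a small heat shock protein (116408491 to 116422864), rose 8.19-fold from 2.37 and 2.27 to 21.4 and 16.7 CPM (log2 3.03, SE 0.26, edgeR adjusted p = 0.000909). Hspb1, a relative on the same chromosome, fell from 6.45 and 6.30 to 2.33 and 3.05 CPM, a log2 fold change of -1.24 (edgeR adjusted p = 0.0456). That call was lost on leaving out control 1 (edgeR adjusted p = 0.184) or control 2 (0.22), in the replicate block fit (0.0686), with TMM factors from autosomes other than 4, 5 and 8 (0.0507) and with column totals alone (0.0691). Uchl1, a ubiquitin hydrolase, fell by 1.42 on the log2 scale (0.172 without control 2), and Fbxo21, an F-box protein, by 0.99 (0.223 without control 2). Of 32 tested members of the list of chaperones and protein turnover, 1 rose and 3 fell, and the middle edgeR log2 fold change was 0.16. Over all genes tested 5.06% were higher and 2.38% lower, and each of the 3 falls was lost without control 2.

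Immune genes outside the excluded families included 4 that passed upward, Trafd1, Hpse, Pf4 and P2rx4. Trafd1, a zinc finger regulator of innate signalling (121371725 to 121385632), had 63.1 and 69.7 CPM in the controls and 319 and 281 CPM in the UBXN9 libraries. Its 4.52-fold rise had a log2 value of 2.18 (SE 0.17, edgeR adjusted p = 0.000635). Naa25, an N-terminal acetyltransferase subunit close by at 121397936 to 121444378 and named after its values were seen, rose 2.05-fold (edgeR adjusted p = 0.0108, and 0.127 without control 2). Hpse, the heparanase that cleaves heparan sulfate, rose 4.68-fold from 8.01 and 7.35 to 36.0 CPM in both UBXN9 libraries (edgeR adjusted p = 0.00089). Pf4, a chemokine whose symbol the rule does not exclude, rose 4.91-fold from 0.649 and 0.318 to 2.84 and 2.04 CPM (edgeR adjusted p = 0.0356). Its call was lost without control 2 (0.202) and with column totals alone (0.0677), and the fold was 7.52 without control 1. P2rx4, an ATP-gated channel, rose 1.73-fold (edgeR adjusted p = 0.0227), a call lost on leaving out control 1 (0.212) or control 2 (0.291) and in the replicate block fit (0.0751). In this list 4 of the 21 measured members rose and none fell, and the middle log2 fold change was 0.22, against 5.06% higher and 2.38% lower over all genes. The calls of Pf4 and P2rx4 were among those lost with a library left out.

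**Figure D5:**
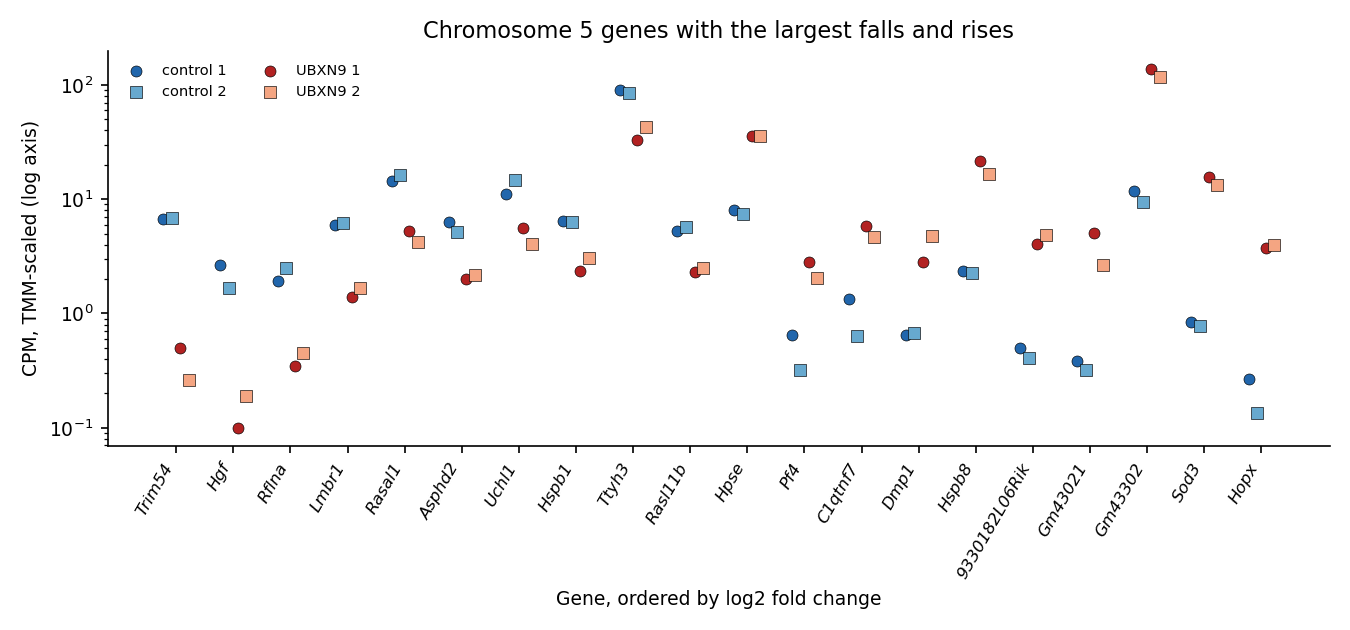
TMM-scaled CPM, on a log axis, of the 10 chromosome 5 genes with the largest falls and the 10 with the largest rises among those that passed the edgeR test, in control 1 and 2 (blue) and UBXN9 1 and 2 (red). The 2 groups do not overlap for any of the 20 genes, which the rule for choosing them required.

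Growth factor genes gave the second largest fall, that of Hgf. The CPM rule admitted Hgf only through the controls, so 1 CPM or more in both controls was required. Hgf, the ligand of the receptor MET (16553495 to 16620152), had 2.63 and 1.68 CPM in the controls and 0.0995 and 0.189 CPM in the UBXN9 libraries, a 14.1-fold fall (log2 -3.82, SE 0.57, edgeR adjusted p = 0.00922). The EGF receptor ligands lie side by side and did not move alike. Areg, which encodes amphiregulin, fell 2.19-fold from 29.1 and 37.2 to 17.7 and 12.6 CPM (edgeR adjusted p = 0.0356, and 0.224 without control 2). Ereg and Btc, for epiregulin and betacellulin, had 30.2 and 24.9, then 43.5 and 73.3 CPM, and 1.34 and 0.681, then 3.33 and 2.68 CPM; their log2 differences of 1.09 and 1.56 fell short of the threshold (edgeR adjusted p = 0.0587 and 0.0816). Fzd9, a WNT receptor, rose 3.89-fold from about 0.5 CPM (edgeR adjusted p = 0.0338). The call of Fzd9 was lost without control 1 (0.219), without control 2 (0.211), by DESeq2 (0.0887) and with column totals alone (0.0572). Flt1, a VEGF receptor, went from 16.6 and 15.9 to 25.2 and 36.8 CPM and did not pass (edgeR adjusted p = 0.0573). Of 20 tested members of the list, 1 rose and 2 fell, with a median of 0.25, where 5.06% of all genes were higher and 2.38% lower. The list also held Insig1, a regulator of sterol synthesis that is counted under liver and metabolism too.

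Trim54, a tripartite motif protein known from muscle (31116712 to 31137630), had the largest fall, 17.9-fold, from 6.64 and 6.81 CPM in the controls to 0.498 and 0.264 CPM in the UBXN9 libraries (log2 -4.16, SE 0.39, edgeR adjusted p = 0.00144). Trim54, and Rflna below, were under 1 CPM in both UBXN9 libraries. The CPM rule admitted them only through the controls, so 1 CPM or more in both controls was required. Lmbr1 fell 3.93-fold from 5.91 and 6.17 to 1.39 and 1.66 CPM (edgeR adjusted p = 0.00919). Rasal1, a GTPase-activating protein of RAS, fell 3.24-fold from 14.3 and 16.4 to 5.28 and 4.22 CPM (edgeR adjusted p = 0.00807). Rasl11b, a Ras-like GTPase, fell 2.28-fold (edgeR adjusted p = 0.0488). The call for Rasl11b was lost on leaving out control 1 (0.194) or control 2 (0.333), in the replicate block fit (0.107), by DESeq2 (0.0767), with TMM factors from autosomes other than 4, 5 and 8 (0.0541) and with column totals alone (0.0621). Ttyh3, a tweety-family membrane protein, fell 2.31-fold from 87.2 ± 3.92 to 37.7 ± 7.15 CPM (SD, n = 2) (edgeR adjusted p = 0.0108). Rflna, a filamin-binding protein, fell 5.38-fold (0.0202, and 0.194 without control 2), and Asphd2 fell 2.78-fold (0.0272, with 0.171 and 0.0671 without control 1 and control 2).

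Among 26 liver and metabolic genes 2 rose and none fell, and their middle edgeR log2 fold change was 0.11, beside 5.06% higher and 2.38% lower over all genes. Acacb, acetyl-CoA carboxylase 2 of fatty acid metabolism, rose 2.77-fold from 3.66 and 4.22 to 9.31 and 12.5 CPM (edgeR adjusted p = 0.0207). Its call was lost without control 1 (0.0736), without control 2 (0.0647) and with column totals alone (0.056). Insig1, a regulator of sterol synthesis, went from 390 and 364 to 516 and 515 CPM and did not pass (edgeR adjusted p = 0.163).

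Among 25 genes of the cytoskeleton and adhesion 2 rose and none fell, and their middle log2 fold change was 0.05, beside the same shares of 5.06% and 2.38% over all genes. Igfbp7, a secreted binding protein, rose 2.74-fold from 4.96 and 5.49 to 14.5 and 14.1 CPM (edgeR adjusted p = 0.0108, and 0.0517 without control 2), and it overlaps Polr2b. Wdr1, a cofactor of actin disassembly, rose 1.61-fold (edgeR adjusted p = 0.0435), a call lost on leaving out control 1 (0.466) or control 2 (0.326) and in the replicate block fit (0.172). Plod3, a collagen-modifying enzyme, had 230.0 and 233 CPM in the controls and 361 and 359.7 CPM in the UBXN9 libraries, short of the threshold (edgeR adjusted p = 0.0555).

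The remaining lists had at most 1 call each. Over all genes tested 5.06% were higher and 2.38% lower, and 68.0% of the 769 members lay above the median of the other autosomes. RNA synthesis, processing and translation genes had 0 of 54 called by edgeR, 5 with an unadjusted p under 0.05 and 1 called by DESeq2, with 38 of 54 above the median of the other autosomes and a relative median of 0.09. Among them Zcchc8, the scaffold of a nuclear complex that brings RNA to the exosome, had 43.2 and 44.1 CPM in the controls and 35.4 and 36.4 CPM in the UBXN9 libraries. These groups did not overlap, and the log2 fold change of -0.28 (SE 0.16) did not pass (edgeR adjusted p = 0.369). Mitochondrial genes had 0 of 18 called by edgeR or DESeq2, 1 with an unadjusted edgeR p under 0.05 and 15 of 18 above, with a relative median of 0.11. Cell cycle, replication and repair genes had 1 of 35 called and 16 of 35 above, with a relative median of -0.04, the lowest of the 8 lists. Their called member was Cdk8, a kinase of the Mediator complex, which rose 1.66-fold (edgeR adjusted p = 0.0449), a call lost on leaving out control 1 (0.304) or control 2 (0.346), in the replicate block fit (0.124) and with column totals alone (0.103). Relative medians of the other lists were 0.30 for growth factor genes, 0.27 for immune genes, 0.21 for chaperones and protein turnover, 0.16 for liver and metabolism and 0.09 for cytoskeleton and adhesion.

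At the edge of the CPM rule the second-highest library decided membership. The 3 members just inside, 4932422M17Rik, Btbd8 and Iqcd, had second-highest values of 1.01, 1.01 and 1.05 CPM and log2 ratios of 0.11, 0.55 and 0.04, both by library total. Just outside were Ccdc18, Gm45495 and Gm42566, with 0.993, 0.993 and 0.988 CPM and log2 ratios of -0.36, -0.43 and -0.29. Requiring 1 CPM in all 4 libraries left an offset of 0.142 from the other autosomes.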

How the data were processed

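RNA-seq of 4 libraries was used, 2 of control and 2 of UBXN9-overexpressing LPC-HRas cells, prepared with the TruSeq RNA kit and sequenced on an Illumina HiSeq instrument, per the labels' protocols. The authors deposited a table of estimated counts per gene, some of them fractions, not scaled to a common total. The submitters' processing notes name HISAT2 2.1.0, HTSeq and GRCm38.p6; the settings, annotation and strand handling are not given in the sources used here, so reads of overlapping genes, which include 465 of the 769 members, cannot be told apart. Columns of samples came from the column names.

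Positions came from GENCODE M21 (GRCm38), which held 55227 of the 55487 annotated identifiers; 241 loci outside the annotation held 0.386% of counts and stayed out of the tests. CPM for the positional ratios used column totals, and a group at 0 would take the floor of 3 counts over the group. Windows of 10 Mb were set by gene start. Counts were rounded and all genes fitted together with edgeR 4.0.16 in R 4.3.3 (TMM, filterByExpr, quasi-likelihood F test of the group, two-sided), with Benjamini-Hochberg adjustment over 13230 genes and a threshold of 0.05. The SE is the log2 fold change divided by the square root of F. CPM of single genes carry the TMM factors, except for the 6 genes at the edge of the CPM rule. The procedure was tested on simulated data.

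The members and gene lists were chosen with earlier results of these data known. Genes were named by rule: the 10 largest rises and 10 largest falls among called members whose groups did not overlap and whose higher group averaged 2 CPM or more; the most abundant member of each window; the 4 lowest p-values in each of 8 lists; Zcchc8; and the 3 genes just inside and outside the CPM rule. Other names were chosen after their values were seen. Some genes that the rule names are not reported here. Alternatives were RLE or no composition factors, TMM factors from autosomes other than 4, 5 and 8, other filters, DESeq2 1.42.0, replicate blocks, an adjusted p of 0.01, other window widths and leaving out each library. Figures were drawn with matplotlib 3.10.9.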

Additional observations from a re-analysis of the deposited data

How the results depend on the processing

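The offset of chromosome 5 from the other autosomes (0.148) was positive under every alternative run. It was 0.156 with the Gbp, Oas and Cxcl genes included, 0.137 without genes called by edgeR and 0.14 without the genes from 40 to 50 Mb, the last 2 chosen after the data were seen, and ran from 0.141 to 0.186 with 1 library left out. The spread between libraries was 0.0079, which the move to 0.141 without control 1 did not exceed. The moves to 0.169 without control 2, 0.169 without UBXN9 1 and 0.186 without UBXN9 2 exceeded it. So did the moves to 0.156, 0.137 and 0.14. The median ratio itself moved from 0.005 to 0.098 with TMM-scaled CPM and ran from -0.039 to 0.062 with a library left out. All windows with at least 10 members stayed above the other autosomes with windows of 5 Mb (23 of 23), 20 Mb (8 of 8) or shifted by 5 Mb (15 of 15). The 5 Mb window from 130 to 135 Mb was at 0.0 after rounding.

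The 38 higher and 14 lower members became 25 higher without composition factors, 70 and 23 without a filter on low counts, and 13 and 4 at an adjusted p under 0.01. With a library left out they ran from 15 to 109 higher and from 5 to 40 lower. The replicate block gave 36 and 12. Numbers in the labels do not show a pairing, and deviations of same-numbered libraries had a correlation of -0.535 across genes; the crossed block, chosen after the data were seen, gave 133 and 45. Of the 52 called members 10 lost their call under the replicate block, and 0 changed direction in any fit. The cause was not tested.

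Directions turned for abundant members that did not pass. With 1 library left out the log2 fold change ran from -0.0049 to 0.21 for Cyp51, from -0.38 to 0.44 for Cacna2d1 (-0.052 without control 2), from -0.57 to 0.18 for Rbpj, from -0.34 to 0.31 for Rpl9 (-0.14 without control 1), from -0.046 to 0.21 for Grsf1, from -0.32 to 0.012 for Rplp0, from -0.12 to 0.18 for Gnb2 (-0.1 without control 1) and from -0.062 to 0.12 for Actb (-0.0074 without UBXN9 1). Without composition factors it was -0.018 for AI506816, -0.078 for Rpl9, -0.055 for Gnb2 and -0.059 for Actb, and Rpl9 had -0.0067 with the replicate block and with the crossed block. With 2 libraries a group, members under 5 CPM rest on few counts.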
